A study of Homo sapiens with 4 samples.

Results

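The respiratory chain and ATP synthase were followed through 118 of 60674 features, chosen by symbol: the mitochondrially encoded subunit genes and nuclear genes of complexes I to V whose symbols begin with NDUF, SDH, UQCR, COX or ATP5. Of these, 13 are mitochondrially encoded, 71 are nuclear protein-coding genes and 34 are pseudogenes of ATP synthase genes that share the naming pattern. By complex, the nuclear genes number 36 in complex I, 4 in complex II, 8 in complex III, 11 in complex IV and 12 in complex V, and the mitochondrially encoded genes 7, 0, 1, 3 and 2. NDUFA4 carries a complex I name but was counted with complex IV, where its protein is known to sit. The symbol pattern does not reach every subunit: CYC1, NDUFAB1 and some small ATP synthase subunits are described further on as neighbours.

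An ectoderm and an hPSC state of a pooled CRISPR screen were compared. The ectoderm library came from human pluripotent stem cells (hPSC) that had received 2 lentiviruses, a pool of guides marked with EGFP and a second virus for Cas9 marked with mCherry; they were sorted by these colours, left for a week and then differentiated to ectoderm. The hPSC library came from cells with the same viruses and sorting, and its treatment label, unlike the protocol text shared by all samples, names no differentiation. Guides in the 2 libraries were aimed at different genes, and a matching amplicon library for each state links cells to guides. The labels name H9, an established human embryonic stem cell line, for every sample; in a check of expression, 2 of 2 transcriptome libraries did not match that line, so its identity is unsettled for all results here.

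The ectoderm library held 16360 cells and 91249888 UMIs (unique molecular identifiers, 1 per captured mRNA copy), with a median of 4499 UMIs per cell. The hPSC library held 15326 cells and 83246015 UMIs, with a median of 4807.5. The cell barcodes found in both libraries numbered 78. Neural ectoderm markers summed to 1420 CPM (UMIs of a gene scaled to a library total of 1000000) in ectoderm and 275 CPM in hPSC, with all 7 measured markers higher in ectoderm, whereas PAX6 stood at 1.19 and 0.216 CPM. Pluripotency markers summed to 3131 CPM in ectoderm, against 3530 CPM in hPSC, but moved both ways: NANOG stood at 11.6 and 178 CPM (log2 ratio -3.94), POU5F1 at 485 and 1155 CPM (-1.25) and SOX2, which neural ectoderm also expresses, at 516 and 236 CPM (1.13). LIN28A, at 956 and 517 CPM (0.89), and DNMT3B, at 393 and 310 CPM (0.34), were higher in ectoderm as well. TDGF1 (-1.28) and L1TD1 (-0.86) were lower, and DPPA4 was nearly level (-0.10). Markers of other fates were low: mesoderm and endoderm markers summed to 3.30 and 1.65 CPM, trophectoderm and amnion markers to 4.53 and 3.11 CPM, neuron markers, mainly STMN2, to 19.7 CPM in ectoderm and 46.6 CPM in hPSC, and SOX17 had 0 UMIs in both libraries. Each state is 1 library, so there is no replicate check, no test and no p-value; each 95% interval covers counting error only. State, guide pool, culture and library cannot be told apart.

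Respiratory complexes I, III and IV pass electrons from NADH to oxygen and pump protons across the inner mitochondrial membrane, complex II feeds in electrons from succinate, and complex V uses the proton gradient to make ATP. Their subunits come from both genomes: mitochondrial DNA encodes a few hydrophobic core proteins, while most subunits, and all of complex II, are encoded in the nucleus and imported. Pluripotent cells are known for a strong reliance on glycolysis beside respiration, and differentiation is often described as a shift between these routes.

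The mitochondrially encoded genes were lower in ectoderm as a group, and the nuclear genes of the same complexes were nearly level. The 13 mitochondrially encoded genes took 29713 CPM (2.97% of UMIs) in ectoderm, against 39355 CPM (3.94%) in hPSC, a log2 ratio of -0.41 (95% interval -0.41 to -0.40), or 75.5% of the hPSC level. For single genes in such pooled sums, fewer cells that express a gene and less RNA per cell cannot be told apart; counts of the mitochondrially encoded sum in single cells are given further on. The mitochondrial share is also a common sign of cell quality, whose part in the result was not tested. The 71 nuclear genes took 19821 CPM in ectoderm, against 20125 CPM in hPSC, a log2 ratio of -0.02 (-0.02 to -0.02), or 98.5%. The ratio of the genomes' sums, which does not depend on the library total, therefore differed between the libraries by -0.38 (-0.39 to -0.38) on the log2 scale. This last interval holds the counting error of the mitochondrial sum only, not that of the nuclear sum.

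This gap between the genomes kept its direction under every alternative run, from -0.43 to -0.31, and was -0.36 in cells with a non-targeting guide. Alternatives that only rescale the library total could not move the gap, which stayed at -0.38 under them. The nuclear sum was so close to 0 that its sign depended on the setting: it stood at 0.01 when the median log2 ratio of all genes at 20 CPM or more (-0.03) was set to 0, and at 0.02 in non-targeting cells.

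Among single genes, 81 of the 84 protein-coding members reached 20 CPM in at least 1 library. The exceptions were MT-ATP8, NDUFA7 and NDUFV2; none of the 34 pseudogene features did, and these held 232 UMIs in ectoderm and 225 in hPSC in all. Of the 81, 1 gene was lower by a log2 ratio of 1 or more (2-fold), where 4.03% of all 6250 genes at that level were, and 0 were higher by as much, where 3.25% were. At a log2 ratio of 0.5, 8 were lower (9.88%, against 14.2% of all genes) and 0 were higher (against 11.4%). Mitochondrially encoded genes made up 5 of those 8, among 12 measured, and nuclear genes 3, among 69 measured. All 12 measured mitochondrially encoded genes had a ratio below 0 (in non-targeting cells MT-ND4L and MT-CYB did not), as did 50 of 69 nuclear genes (72.5%) and 53.7% of all genes. The nuclear genes lay close together: 49 of 69 were within 0.25 of 0, against 45.2% of all genes, and the median size of their log2 ratio was 0.17, against 0.28 over all genes.

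**Figure D1:**
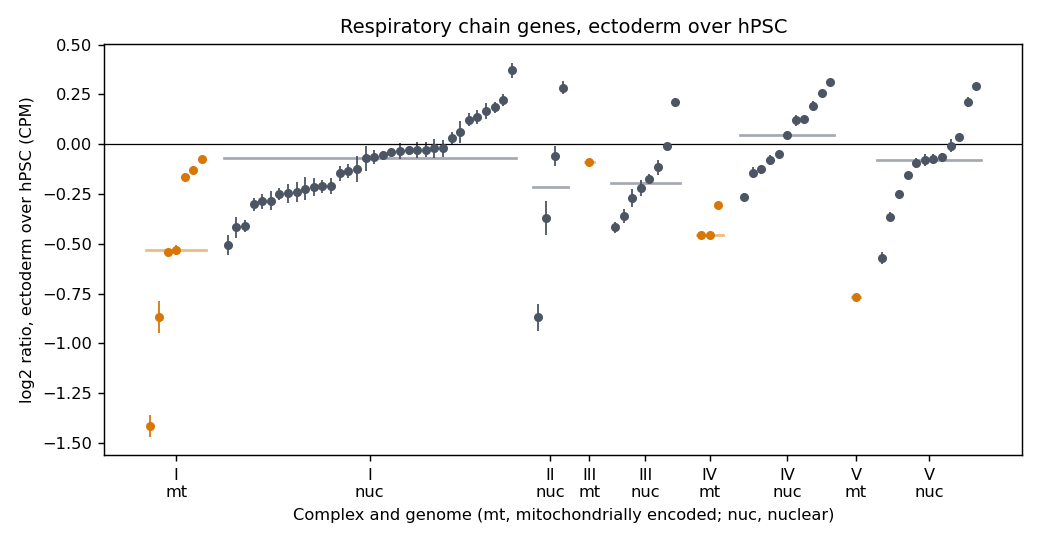
Each point is 1 of the 81 members at 20 CPM or more, with its log2 ratio of CPM (ectoderm over hPSC) and 95% counting interval, grouped by complex and genome and sorted within a group; horizontal bars are group medians. The 12 mitochondrially encoded genes all lie below 0, while the nuclear genes of each complex lie on both sides of it.

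Complex I receives electrons from NADH and is the largest of the complexes. MT-ND6, the 1 subunit gene on the light strand of mitochondrial DNA, had the lowest ratio of the 81 measured members, at 43.6 CPM in ectoderm, against 116 CPM in hPSC (log2 ratio -1.41, -1.47 to -1.36). MT-ND4 stood at 1892 CPM in ectoderm, against 2759 CPM in hPSC (-0.54, -0.55 to -0.53), and MT-ND5 at 229 and 331 CPM (-0.53, -0.56 to -0.50). MT-ND4L, which shares an mRNA with MT-ND4, stood at 22.0 and 40.1 CPM (-0.87, -0.95 to -0.79), but at 0.060 in cells with a non-targeting guide.

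Other mitochondrially encoded complex I genes differed far less. MT-ND1 was at 377 CPM in ectoderm, against 422 CPM in hPSC (-0.16), MT-ND2 at 446 and 488 CPM (-0.13), and MT-ND3 at 1040 and 1096 CPM (-0.08, -0.09 to -0.06). The 7 genes, all subunits of the proton-pumping membrane arm, were thus spread over more than a log2 unit, with MT-ND3 close to the nuclear genes and MT-ND6 far from them.

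MT-CYB, the cytochrome b of complex III and its 1 mitochondrially encoded subunit, stood at 2449 CPM in ectoderm, against 2602 CPM in hPSC (-0.09, -0.10 to -0.08). The catalytic subunits of complex IV, which reduces oxygen to water, held most of the mitochondrially encoded UMIs. MT-CO1 was at 4459 CPM in ectoderm, against 6112 CPM in hPSC (-0.45), MT-CO2 at 7556 and 9355 CPM (-0.31), and MT-CO3, a structural core subunit, at 9232 and 12679 CPM (-0.46). These 3 genes therefore set most of the group's sum, and all of them were lower in ectoderm.

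MT-ATP6, the proton channel subunit of ATP synthase, stood at 1965 CPM in ectoderm, against 3351 CPM in hPSC (-0.77, -0.78 to -0.76). MT-ATP8, its small partner subunit, had 189 UMIs in ectoderm and 276 in hPSC (-0.68, -0.95 to -0.41). MT-ATP8 and MT-ATP6 are translated from one mRNA, as are MT-ND4L and MT-ND4, and reads from its 3′ end fall in the downstream gene of each pair. On GRCh38 (GENCODE v29) the last 46 bases of MT-ATP8 (chrM:8366-8572) are also the first of MT-ATP6 (chrM:8527-9207), MT-ND4L and MT-ND4 share 7 bases, and MT-ATP6 and MT-CO3 share 1. The end of MT-ATP8 (chrM:8513-8572, plus strand) is shown because it makes the shared stretch visible, with the bases that also belong to MT-ATP6 in capitals.
MT-ATP8: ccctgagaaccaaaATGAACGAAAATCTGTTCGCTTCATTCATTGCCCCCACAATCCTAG

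MT-ATP6 also has a nuclear copy that took many UMIs. The pseudogene MTATP6P1 (chr1:633696-634376) differs from MT-ATP6 at 10 of 681 bases (98.5% identity) and had 27008 UMIs in ectoderm and 52364 in hPSC, or 296 and 629 CPM. All copies named after MT-ATP6 together came to 15.1% of the gene's own UMIs in ectoderm and 18.8% in hPSC, whereas copies of the other mitochondrially encoded genes came to at most 1.46%. With copies added to their genes, an alternative chosen after seeing the data, MT-ATP6 stood at -0.82. The ends of both genes (chrM:9148-9207 and chr1:634317-634376, plus strands) are shown because 3′ reads fall near them; capitals mark the 1 base that differs among the last 60.
MT-ATP6: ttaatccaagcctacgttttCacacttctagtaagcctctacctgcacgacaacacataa
MTATP6P1: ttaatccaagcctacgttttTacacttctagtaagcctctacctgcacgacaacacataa

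In gene order along the mitochondrial DNA, the ratios did not run in one direction. MT-ND1 and MT-ND2 were near 0, MT-CO1 to MT-CO3 were lower, MT-ND3 was near 0 again, MT-ND4L to MT-ND5 were lower, and MT-CYB, the last of the heavy-strand genes, was near 0. MT-ND6 lies on the opposite strand, directly after the end of MT-ND5, with 0 bases between their annotated ends; the strand setting of the authors' counting is not given in the sources used here, so reads that run past the end of MT-ND5 and reads of MT-ND6 cannot be told apart. The mitochondrial ribosomal RNAs, which are not members, were lower too: MT-RNR1 stood at 1093 CPM in ectoderm, against 1994 CPM in hPSC (-0.87) and MT-RNR2 at 1106 and 1844 CPM (-0.74).

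**Figure D2:**
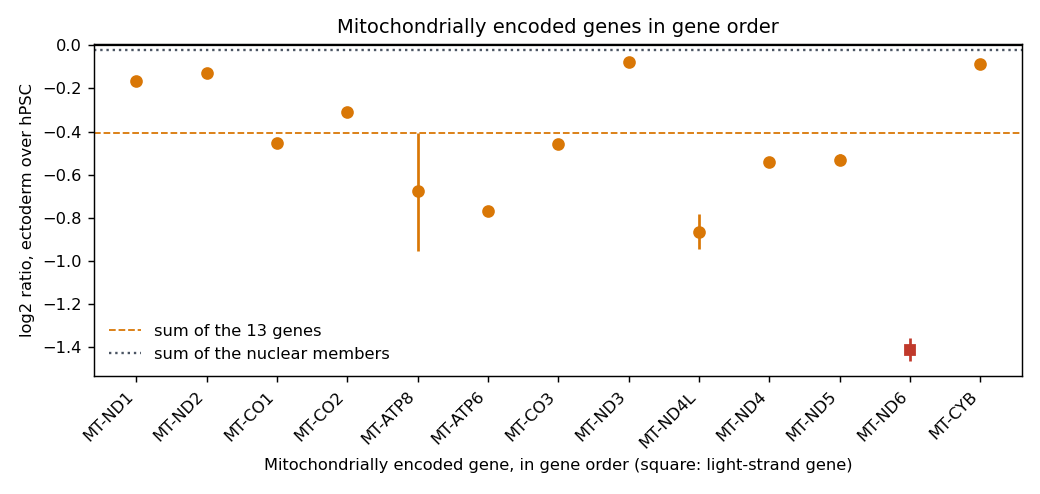
Points are log2 ratios of CPM (ectoderm over hPSC) with 95% counting intervals for the 13 mitochondrially encoded genes in gene order, the square being the light-strand gene MT-ND6; the dashed and dotted lines are the ratios of the mitochondrial sum (-0.41) and the nuclear sum (-0.02). MT-ND3 (-0.08) and MT-CYB (-0.09) sit near the nuclear line and MT-ND6 (-1.41) far below both.

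The make-up of the mitochondrially encoded pool differed with these ratios. MT-CO3 made up 31.1% of it in ectoderm and 32.2% in hPSC, MT-CO2 25.4% and 23.8%, and MT-CO1 15.0% and 15.5%. MT-CYB took 8.24% in ectoderm and 6.61% in hPSC, MT-ND3 3.50% and 2.79%, MT-ATP6 6.61% and 8.52%, and MT-ND6 0.147% and 0.295%. To compare cells of like mitochondrial content, shares were also taken within cells at 2% to 3%, 3% to 4% and 4% to 6% mitochondrial UMIs. There the log2 ratio of shares (ectoderm over hPSC) stayed between 0.36 and 0.38 for MT-CYB, 0.22 and 0.30 for MT-ND3, -0.24 and -0.20 for MT-ATP6 and -1.05 and -0.90 for MT-ND6. Over all cells the same log2 ratio of shares was 0.32 for MT-CYB, 0.33 for MT-ND3, -0.36 for MT-ATP6 and -1.01 for MT-ND6. The differences of MT-CYB, MT-ND3, MT-ATP6 and MT-ND6 kept their direction in matched cells, and those of MT-ATP6 and MT-ND3 were smaller there. MT-CO1 and MT-CO2 kept theirs too. MT-CO3 did not: its log2 ratio of shares was -0.05 over all cells and between -0.02 and 0.01 in these bins.

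Among the nuclear genes, complex I had 34 of 36 measured, with a median log2 ratio of -0.07 and a range of -0.51 to 0.37. Its sum stood at 5257 CPM in ectoderm, against 5512 CPM in hPSC (-0.07), or -0.01 with NDUFA4 counted here. The lowest were NDUFB6, an accessory membrane arm subunit, at 61.2 and 87.0 CPM (-0.51, -0.56 to -0.46), NDUFV1, the flavoprotein that binds NADH, at 57.6 and 77.0 CPM (-0.42), and NDUFB4, another accessory subunit, at 181 and 240 CPM (-0.41). The highest were the accessory subunits NDUFB1, at 142 CPM in ectoderm, against 109.8 CPM in hPSC (0.37, 0.33 to 0.41), NDUFB2, at 223 and 191 CPM (0.22), and NDUFB11, at 289 and 255 CPM (0.18).

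Nuclear core subunits of complex I, which carry the flavin and iron-sulfur clusters, leaned lower. Of 7, 6 were measured, and all 6 had a ratio below 0, with a sum of 618 CPM in ectoderm, against 723 CPM in hPSC (-0.23, -0.24 to -0.21) and a median of -0.25. The unmeasured core gene, NDUFV2, had 1516 UMIs in ectoderm and 1219 in hPSC (0.18, 0.07 to 0.29), and the UMIs of its 1 pseudogene copy came to 28.2% and 33.7% of its own. The accessory subunits of complex I had a median of -0.04 over 28 measured genes, 20 of them below 0.

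Complex II, succinate dehydrogenase, was split. SDHB, its iron-sulfur subunit, had the lowest ratio of the measured nuclear members, at 30.7 CPM in ectoderm, against 56.1 CPM in hPSC (-0.87, -0.94 to -0.80). SDHC, a membrane anchor, stood at 196 and 161 CPM (0.28, 0.25 to 0.32), and the other anchor, SDHD, had 6848 and 6517 UMIs (-0.06). SDHA, the flavoprotein, had 2116 UMIs in ectoderm and 2497 in hPSC (-0.37); UMIs of its copies came to 29.1% and 11.8% of its own, and with them added its ratio was -0.16. The sum of the complex was 325 CPM in both libraries.

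Complex III had all 8 nuclear genes measured and 7 of them below 0 (median -0.20, range -0.42 to 0.21). UQCRFS1, the Rieske iron-sulfur protein, stood at 198 CPM in ectoderm, against 264 CPM in hPSC (-0.42), and UQCRQ, a small subunit, at 131 and 168 CPM (-0.36). UQCR10, a small subunit near cytochrome c1, was at 373 and 322 CPM (0.21), and UQCRH, the hinge protein, at 1895 and 1904 CPM (-0.01).

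Complex IV was the 1 complex whose nuclear sum was higher in ectoderm, at 5775 CPM against 5449 CPM in hPSC (0.08, 0.08 to 0.09), with 6 of 11 genes above 0 and a median of 0.04. The complex II sum was level (-0.003, -0.03 to 0.02), so its sign was not settled. NDUFA4 stood at 1033 CPM in ectoderm, against 831 CPM in hPSC (0.31, 0.30 to 0.33), COX7C at 962 and 804 CPM (0.26) and COX6C at 351 and 307 CPM (0.19). At the low end, COX5A was at 486 and 585 CPM (-0.27), COX7B at 238 and 263 CPM (-0.14) and COX8A at 313 and 342 CPM (-0.13). All of these are nuclear subunits that surround the catalytic core, whose 3 mitochondrially encoded genes together stood at 21247 CPM in ectoderm, against 28145 CPM in hPSC (-0.41). The nuclear and mitochondrial sums of the complex thus lay on opposite sides of 0, although 5 of the 11 nuclear genes were below it.

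Complex V had 12 of 12 nuclear genes measured (median -0.08, range -0.57 to 0.29). ATP5PD, in the peripheral stalk, was at 157 CPM in ectoderm, against 234 CPM in hPSC (-0.57, -0.60 to -0.54), and ATP5PF, of the same stalk, at 361 and 464 CPM (-0.36), while ATP5PO, at its tip, was at 358 and 310 CPM (0.21). The 5 genes of the catalytic F1 head and its central stalk all lay within 0.25 of 0, for example ATP5F1B, the catalytic beta subunit, at 517 and 505 CPM (0.03). The 3 genes ATP5MC1, ATP5MC2 and ATP5MC3 encode the same c-ring protein: ATP5MC2 stood at 934 and 765 CPM (0.29, 0.27 to 0.30), ATP5MC1 at 383 and 456 CPM (-0.25) and ATP5MC3 at 1254 and 1397 CPM (-0.16). Their sum was 2571 CPM in ectoderm, against 2618 CPM in hPSC (-0.03), nearly level, while the single genes differed in direction.

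Promoters were read for the motifs most often linked to respiratory genes. RefSeq windows of 300 bases (250 before to 50 after the start, GRCh38.p14) matched 59 of 71 nuclear members, and both strands were searched. The NRF1 core GCATGCGC was in 22.0% of these genes and 3.68% of all 27305 genes with a window; the ETS motif CCGGAAGT, to which GABP binds, in 18.6% and 4.95%; and the YY1 motif AAGATGGCG in 15.3% and 2.14%. A gene counted where any of its windows matched. The 27305 genes include genes not measured here, so they were not matched to the members for expression. Matches of different motifs overlapped in 0 member windows. Measured genes with any of the 3 motifs (25) had a median log2 ratio of -0.13 and those with none (32) of -0.07. For the NRF1 core alone the order was the other way, with -0.07 for genes with it (13) and -0.10 for those without (44). The windows shown belong to the matched nuclear genes at both ends of the range, SDHB (chr1:17053983-17054282, minus strand) and ATP5PD (chr17:75046920-75047219, minus strand) at the low end and NDUFB1 (chr14:92121657-92121956, minus strand) and ATP5MC2 (first entry, chr12:53676034-53676333, minus strand) at the high end; capitals mark motif matches.
SDHB: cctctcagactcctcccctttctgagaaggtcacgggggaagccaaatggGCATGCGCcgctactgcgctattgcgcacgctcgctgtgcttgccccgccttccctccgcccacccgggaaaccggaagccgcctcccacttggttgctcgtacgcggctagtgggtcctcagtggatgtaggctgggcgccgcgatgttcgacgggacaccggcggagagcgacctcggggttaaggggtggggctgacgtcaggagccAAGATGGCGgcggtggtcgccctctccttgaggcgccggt
ATP5PD: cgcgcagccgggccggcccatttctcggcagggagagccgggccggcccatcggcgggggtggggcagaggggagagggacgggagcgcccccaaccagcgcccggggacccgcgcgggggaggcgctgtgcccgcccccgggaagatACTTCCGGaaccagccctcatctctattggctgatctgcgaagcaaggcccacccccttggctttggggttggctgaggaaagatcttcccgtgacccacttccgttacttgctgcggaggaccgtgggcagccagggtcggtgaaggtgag
NDUFB1: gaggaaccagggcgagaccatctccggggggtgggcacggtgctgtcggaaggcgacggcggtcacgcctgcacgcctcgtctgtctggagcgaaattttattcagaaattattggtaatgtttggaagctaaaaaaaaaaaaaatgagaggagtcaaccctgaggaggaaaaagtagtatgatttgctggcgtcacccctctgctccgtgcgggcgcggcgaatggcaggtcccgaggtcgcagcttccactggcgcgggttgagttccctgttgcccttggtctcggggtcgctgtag
ATP5MC2: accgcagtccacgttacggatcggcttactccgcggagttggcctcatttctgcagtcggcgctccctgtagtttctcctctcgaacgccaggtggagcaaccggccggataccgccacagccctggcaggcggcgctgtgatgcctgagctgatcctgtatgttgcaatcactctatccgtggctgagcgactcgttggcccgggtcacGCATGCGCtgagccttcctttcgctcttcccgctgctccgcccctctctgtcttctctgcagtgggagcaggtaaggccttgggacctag

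Neighbours of the chain outside the symbol pattern were compared next; the shares of all genes past 0.5, 14.2% lower and 11.4% higher, apply to each count of these lists. Among other subunits and electron carriers, 9 of 16 listed genes in the files were measured (median -0.17, 2 lower and 0 higher by 0.5). CYCS, the electron carrier cytochrome c, stood at 268 CPM in ectoderm, against 456 CPM in hPSC (-0.77, -0.79 to -0.75), and CYC1, the cytochrome c1 of complex III, at 119 and 179 CPM (-0.58). ATP5MG was at 501 and 440 CPM (0.19) and ATP5MF at 250.3 and 241 CPM (0.05), both small membrane subunits of ATP synthase. Isoforms known from muscle, lung or testis stayed low: COX4I2, COX6A2, COX7A1 and COX8C had at most 1.68 CPM in either library, and COX6B2, a testis isoform, had 4.22 CPM in ectoderm and 1.83 CPM in hPSC (1.21, 0.93 to 1.49).

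Assembly factors did not share a direction. Complex I factors had a median of -0.13 over 12 measured genes (3 lower, 0 higher by 0.5), with ECSIT at 17.2 CPM in ectoderm, against 25.9 CPM in hPSC (-0.59) and NDUFAF7 at 38.9 and 33.9 CPM (0.20) at the ends. Complex II and III factors had a median of 0.00 over 7, from SDHAF3 at 59.7 and 86.1 CPM (-0.53) to UQCC2 at 170 and 105 CPM (0.70). Complex IV factors had a median of -0.17 over 21 (3 lower, 0 higher by 0.5): SCO2, a copper chaperone, was at 15.8 and 26.5 CPM (-0.75), CMC1 at 57.4 and 89.3 CPM (-0.64) and PET117 at 28.8 and 21.9 CPM (0.39). Of complex V factors, 3 were measured, with ATPAF1 highest at 34.0 and 22.7 CPM (0.58) and TMEM70 lowest at 26.5 and 34.2 CPM (-0.37).

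Genes that maintain and transcribe mitochondrial DNA had a median of -0.12 over 7 measured (1 lower, 1 higher by 0.5). TFAM, which packages the DNA and activates its promoters, stood at 87.6 CPM in ectoderm, against 81.9 CPM in hPSC (0.10), and the mitochondrial RNA polymerase gene POLRMT, below the level used for counting, at 8.66 and 10.3 CPM (-0.25). TFB1M, an rRNA methyltransferase, was at 26.6 and 38.2 CPM (-0.52) and MTERF4 at 36.6 and 25.7 CPM (0.51). Genes of mitochondrial RNA processing and stability had a median of -0.18 over 12 measured, with 0 past 0.5 either way. They ran from PNPT1, a polynucleotide phosphorylase, at 24.1 and 33.6 CPM (-0.48) to MTPAP, the mitochondrial poly(A) polymerase, with 2773 and 2328 UMIs (0.12). Among nuclear regulators, ESRRA, a nuclear receptor of respiratory genes, was lowest at 10.6 and 20.6 CPM (-0.96) and GABPA, the ETS factor GABP alpha, highest at 31.9 and 26.7 CPM (0.25), over 6 measured (median -0.07).

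Genes of other energy routes had lower medians than the nuclear members (-0.07). Citric acid cycle genes had a median of -0.33 over 14 measured (4 lower, 0 higher by 0.5), with SUCLA2, a subunit of succinyl-CoA ligase, at 32.1 CPM in ectoderm, against 114 CPM in hPSC (-1.83) and OGDH at 31.4 and 26.0 CPM (0.28). Glycolysis genes had a median of -0.46 over 15 measured (6 lower, 0 higher by 0.5). LDHA, the lactate dehydrogenase subunit common in glycolytic tissue, stood at 377 CPM in ectoderm, against 939.7 CPM in hPSC (-1.32), and PKM, a pyruvate kinase, at 157 and 357 CPM (-1.18), whereas LDHB, the lactate dehydrogenase subunit common in respiring tissue, stood at 1006 and 973 CPM (0.05). The sums of cytosolic ribosomal protein genes were 227403 CPM in ectoderm, against 198357 CPM in hPSC (0.20).

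Between single cells, the sum of the mitochondrially encoded genes varied far more than the sum of the nuclear ones. Each cell was thinned to 2000 UMIs, which left out 0 ectoderm and 131 hPSC cells. The 13 mitochondrially encoded genes then had a median of 59 UMIs per cell in ectoderm (5th to 95th percentile 23 to 115) and 76 in hPSC (30 to 140). The 71 nuclear genes had a median of 39 in ectoderm (27 to 53) and 40 in hPSC (28 to 54). The variance over the mean, which is 1 for pure counting error, was 13.7 in ectoderm and 15.5 in hPSC for the mitochondrially encoded sum, against 1.61 and 1.55 for the nuclear sum. The sums were not matched for number of genes or for mean, which was 62.4 and 79.4 UMIs against 39.5 and 40.6. Across cells, the sums had a Pearson r of -0.16 in ectoderm and -0.20 in hPSC. Both sums are drawn from the same 2000 UMIs of a cell, which by itself lowers r. How much of these weak values that makes up was not tested.

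**Figure D3:**
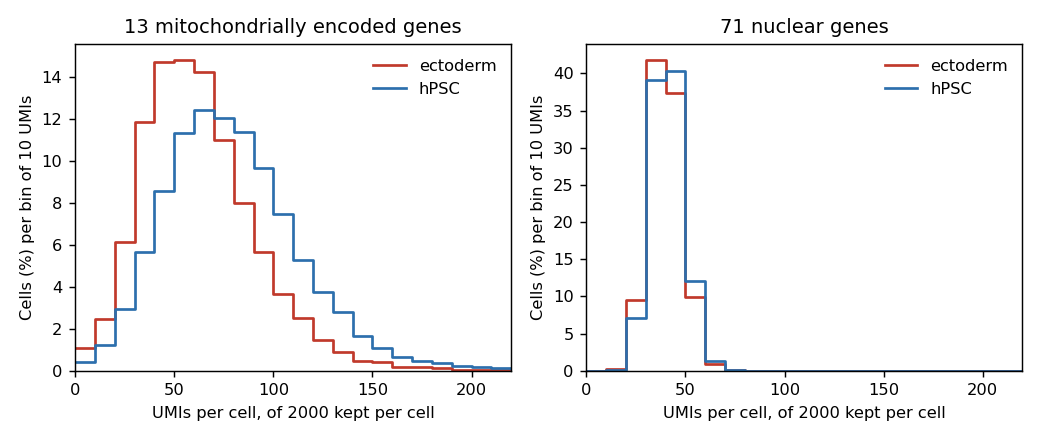
Percent of cells (y axis, per bin of 10 UMIs) by the UMIs of the 13 mitochondrially encoded genes (left) or the 71 nuclear genes (right) after thinning each cell to 2000 UMIs, for ectoderm (red) and hPSC (blue). The mitochondrial distributions are broad, with medians of 59 and 76 UMIs, while the nuclear ones are narrow and lie over each other, with medians of 39 and 40.

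The lower mitochondrial level in ectoderm was a shift of most of the distribution. The mitochondrial share of a cell's UMIs had a median of 3.17% in ectoderm (5th to 95th percentile 1.27% to 6.13%) and 4.18% in hPSC (1.76% to 7.58%). Cells under 1% made up 2.82% of ectoderm (462 cells) and 1.20% of hPSC (184 cells), and with them left out the mitochondrial log2 ratio was -0.38. Cells of the same mitochondrial share were then compared for nuclear genes, in CPM of the UMIs that are not mitochondrially encoded. In the bin of 3% to 4%, nuclear members stood at 19989 in ectoderm (4260 cells) and 21249 in hPSC (3488 cells). They were lower in ectoderm in all 7 bins. The pooled nuclear sum on this same scale was lower in ectoderm too, with a log2 ratio of -0.039, against -0.02 over all UMIs. Over the bins from 0% to 1% up to 10% to 20% they went down by little, with 21973 in the lowest and 19162 in the highest bin in ectoderm and 22406 and 20092 in hPSC, while the mitochondrially encoded sum ran from 5429 to 105954 CPM in ectoderm and 5518 to 108739 CPM in hPSC. Cells low in mitochondrial RNA therefore did not have low nuclear respiratory transcripts.

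**Figure D4:**
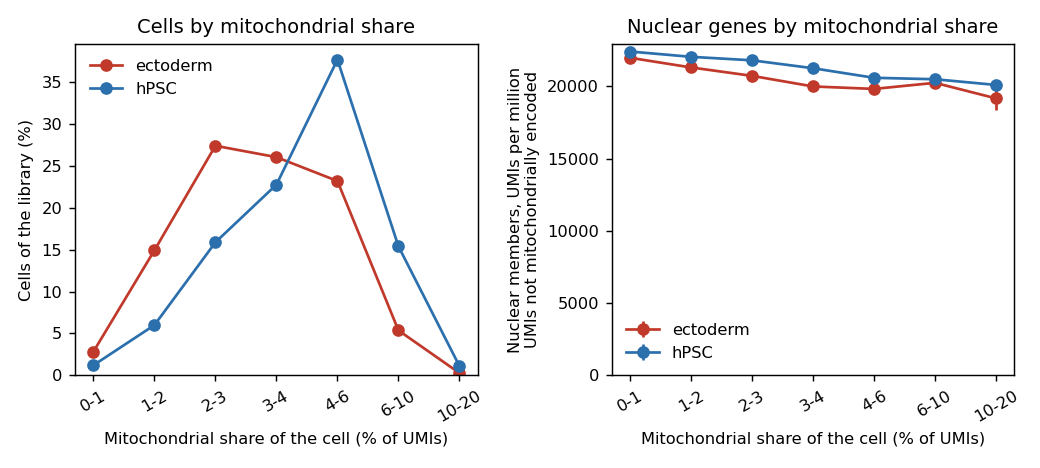
Left, percent of each library's cells (y axis) by the mitochondrial share of their UMIs (x axis); right, CPM of the 71 nuclear members, out of UMIs that are not mitochondrially encoded, with approximate 95% counting intervals, in the same bins, for ectoderm (red) and hPSC (blue). Nuclear levels lie between 19162 and 22406 in every bin, whereas the cells of ectoderm sit at lower mitochondrial shares.

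The mitochondrially encoded level was lower in cells high in cell cycle genes in both libraries, and fell steadily with depth only in ectoderm. In 4 equal groups of cells from shallow to deep, the mitochondrially encoded sum was 33525, 32490, 31285 and 26788 CPM in ectoderm and 39591, 39957, 40487 and 38272 CPM in hPSC. It was lower in ectoderm in each group, and lowest in the deepest ectoderm cells, whose median was 9504 UMIs against 8044 in the deepest hPSC group. Cells above the median for cell cycle genes had 29027 CPM in ectoderm, against 37874 CPM in hPSC, and those below it 30502 and 41171 CPM. Nuclear members, in CPM of UMIs that are not mitochondrially encoded, were lower in ectoderm in the 3 shallower groups but stood at 20787 in the deepest ectoderm group, against 20572 in the deepest hPSC group. With cells weighted equally the log2 ratio was -0.35 for the mitochondrial and -0.04 for the nuclear sum.

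Guides give a view of spread within each library. Cells with exactly 1 guide at 20 or more UMIs numbered 3686 in ectoderm and 2915 in hPSC, of which 159 and 212 had a non-targeting guide. Single non-targeting guides with 5 or more cells were compared with the other non-targeting cells of their library. The mitochondrially encoded sum ranged over log2 ratios of -0.37 to 0.50 across 10 guides in ectoderm and -0.22 to 0.27 across 15 in hPSC, and the nuclear sum over -0.07 to 0.15 and -0.16 to 0.17. These guides have no target, so the ranges show how far small groups of cells (6 to 36) differ by themselves, and they are wider for mitochondrially encoded genes. Among targets with 20 or more cells, 64 of 64 in ectoderm and 48 of 52 in hPSC lay within the mitochondrial range, and 57 of 64 and 52 of 52 within the nuclear one, with UTP14A lowest in ectoderm (-0.18). The lowest and highest mitochondrial values among hPSC targets, named after they were seen, were those of AHSA1 (-0.29) and CALD1 (0.48). The ends of the mitochondrial range were set by guides with 7 and 12 cells in ectoderm and 17 and 11 in hPSC, fewer than any compared target had. Small groups spread more, so lying within the range does not show that a target had no effect.

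COA3 and SCO1, which both act in assembly of complex IV, were among the guide targets, COA3 in hPSC and SCO1 in ectoderm. The 50 hPSC cells with COA3 guides had a mitochondrially encoded sum of 39717 CPM, and the 212 non-targeting cells 37112 CPM, a log2 ratio of 0.10 (0.07 to 0.13) that lay inside the range of single non-targeting guides. Each of those guides had fewer cells, so lying inside their range does not show that COA3 guides had no effect. The 4 COA3 guides, with 25, 8, 2 and 15 cells, gave -0.12, 0.34, 1.57 and 0.11. Without the 2 cells of the third guide the COA3 value was 0.04. MT-CO1, whose translation COA3 is known to regulate, stood at 6201 CPM in COA3 cells and 5787 CPM in non-targeting cells (0.10). COA3 itself stood at 139 CPM (39 UMIs) in its own cells and 138 CPM in non-targeting cells (0.01, -0.54 to 0.51). Whether the guides edited the gene was not tested, and its RNA level does not show it. SCO1 guides were found in 17 cells, under the minimum of 20, and were not compared. The hPSC amplicon table holds 1048575 reads, against 4340737 for ectoderm, and may be part of a longer table. Which hPSC cells count as singly assigned or non-targeting rests on it, so values from those cells could differ if reads are missing.

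**Figure D5:**
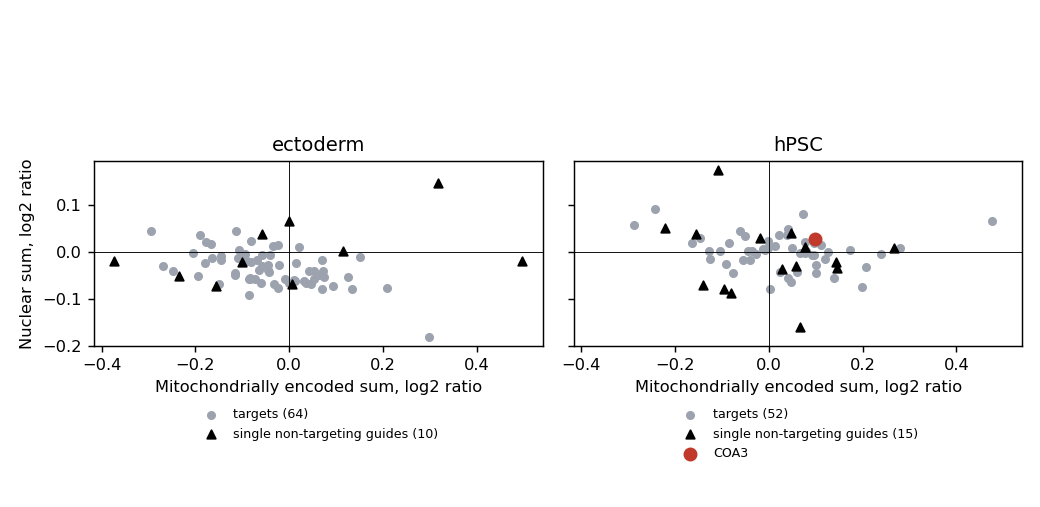
Each point is 1 target with 20 or more cells (grey, against non-targeting cells) or 1 non-targeting guide with 5 or more cells (black triangles, against other non-targeting cells), by the log2 ratio of the mitochondrially encoded sum (x axis) and of the nuclear sum (y axis), in ectoderm (left) and hPSC (right). Points spread more along the mitochondrial than along the nuclear axis, and COA3 (red, 0.10 and 0.03) lies among the non-targeting guides.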

How the data were processed

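Single-cell 3′ transcriptomes and guide amplicons were deposited for 1 ectoderm and 1 hPSC library. Values in the deposited matrices are UMI counts, not normalized. The submitters' processing notes name STAR, STARsolo and GRCh38; tool versions and the strand used for counting are not given in the sources. The mismatch columns of the deposited amplicon tables are counts made by the authors, 1 read per line.

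Cells were kept from 1000 UMIs and 500 genes upwards and up to 20% mitochondrial UMIs, which removed 0 ectoderm and 7 hPSC barcodes; the last limit acts on the genes studied. No doublet caller was run and doublets stayed in. UMIs were summed over cells and scaled to CPM over all genes. Log2 ratios have exact conditional binomial 95% intervals. Counting takes 1 UMI per mRNA at its 3′ end, so levels are not divided by length. A gene is called measured where either library reaches 20 CPM. Guides were counted by distinct UMIs (the 12 bases after the 16-base cell barcode).

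The rule for named genes took all mitochondrially encoded members, 3 (complexes I, IV and V) or 2 (II and III) nuclear members from each end of each complex, and up to 2 from each end of other lists, plus guide targets on those lists with 20 or more cells; other genes named were chosen after their values were seen. Members and lists were chosen with earlier results of these data known. Poisson counts were simulated for 5835 genes of this comparison. Of these, 100 of 100 genes raised and 100 of 100 lowered by 0.75 log2 passed 0.5, against 0 of 5635 not changed. Intervals held the truth for 93%, 94% and 95.5%. The simulated counts held counting error only, so they do not show how the intervals or the 0.5 rule fare with variation between cells or libraries. Python 3.11.15, numpy 2.4.6, scipy 1.17.1, pandas 2.3.3 and matplotlib 3.10.9 were used. Alternatives changed the cell limits, scaling, weighting, depth, cells and level minimum.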

Additional observations from a re-analysis of the deposited data

Results flagged for a closer look

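The nuclear pseudogene MTATP6P1, which is not a member and enters only the alternative with pseudogene copies added, had 27008 UMIs in ectoderm and 52364 in hPSC, where a count of 0 would allow up to 3; it was singled out as a signal in a feature outside the measurement. Its log2 ratio was -1.09 (-1.11 to -1.07).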

How the results depend on the processing

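No paired analysis was possible because each state has 1 library and the labels give no replicate numbers. The mitochondrial sum stayed lower in ectoderm under all 11 alternatives: -0.39 with cells at most 10% mitochondrial, -0.38 with 1% to 20%, -0.42 with mitochondrially encoded genes out of the total, -0.37 with the median of genes set to 0, -0.35 with cells weighted equally or thinned to 2000 UMIs, -0.33 in non-targeting cells, -0.43 in cells below the median for cell cycle genes and -0.41 with pseudogene copies added. In the same order the nuclear sum was -0.023, -0.025, -0.039, 0.013, -0.042 and -0.040 (equal weights and thinned), 0.023, -0.0055 and -0.022, so its sign turned with the median scaling and in non-targeting cells. The gap between the genomes was -0.37 and -0.35 under these cell limits, -0.31 with equal weights or thinning, -0.36 in non-targeting cells, -0.43 in cells low in cell cycle genes and -0.39 with copies added. Members lower by 0.5 numbered 8, against 5 with equal weights or thinning and 17 with no minimum level; those higher numbered 0, against 1 in non-targeting cells and 6 with no minimum; without a minimum, protein-coding members numbered 9 and 0, and the other 8 and 6 were pseudogenes with at most 32 UMIs in a library. In non-targeting cells MT-ND4L (0.060), MT-CYB (0.052), SDHD (0.14) and COX7B (0.12) turned positive. The COA3 value was 0.036 with guides at 10 UMIs, 0.054 against all other singly assigned cells and 0.039 without guide COA3-3. The causes were not tested. The alternatives share the same cells, so they do not stand for replicates, and single genes in non-targeting cells rest on 159 and 212 cells.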
